A study of Mus musculus with 3 samples.

Results

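The 10 genes described here encode the adaptors and kinases that carry the signal of Toll-like receptor 4 inside the cell: Myd88, Ticam1, Ticam2, Irak2, Irak3, Irak4, Traf6, Tbk1, Ikbke and Tank. They were picked by gene symbol from the 55536 genes of the annotation, by a rule that names no measured value but was written with earlier results of these data known, and every one of the 10 was found in all 3 libraries. RNA had been taken from the chromatin fraction of bone-marrow-derived macrophages of C57BL/6J mice, depleted of ribosomal RNA and sequenced as total RNA. All 3 libraries came from cells given 100 ng/ml Lipid A, the part of bacterial lipopolysaccharide that Toll-like receptor 4 binds, for 60 minutes. They are labelled as biological replicates 1, 2 and 3, and were made with 1000, 250 and 500 ng of starting RNA. There was 1 condition only, with no unstimulated cells analysed here, so none of the values below is a response to Lipid A. Sex and age were not recorded, and the labels give the same donor entry for all 3 libraries. Nothing in the labels says that the libraries came from separate animals, so errors and p-values here describe the scatter of 3 libraries and may be of technical origin.

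Chromatin-fraction RNA holds transcripts that are still attached to their gene or were made recently, many of them with introns not yet removed. Toll-like receptor 4 signals through 2 arms. In the first, MyD88 assembles with IRAK family kinases and passes the signal to the ubiquitin ligase TRAF6, which leads to NF-kB and MAP kinases. In the second, TRAM brings in TRIF, which leads to the kinases TBK1 and IKK-epsilon and on to interferon regulatory factors. Macrophages use both arms, and IRAK-M and TANK are also known as brakes on the response.

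The 3 libraries held 13318395, 15352661 and 15812581 expected counts assigned to genes in replicates 1, 2 and 3. Nuclear protein-coding genes took 18.9%, 23.9% and 22.5% of all TPM (a level per transcript length, scaled to the library total) in replicates 1, 2 and 3. All 10 macrophage markers examined were detected, meaning a TPM of at least 1 in every library, and their summed level ran from 872 to 1075 TPM. Ptprc was the highest of them at 454 TPM and Fcgr1 the lowest at 1.82 TPM. Of 25 markers of T cells, B cells, neutrophils, fibroblasts and endothelial cells, 10 were at 0 in all libraries and 1 was detected, the endothelial marker Kdr at 1.95 TPM. The second table of transcript levels, with estimated counts, gave higher values for some of them, with the T cell marker Cd3d at 25.01 TPM, against 0 in the main table, and the endothelial marker Pecam1 at 7.72 TPM, against 0.337. Their part in the results was not tested. Counts of any pair of libraries differed by far more than sampling noise, with a chi-square per degree of freedom between 15.3 and 36.9, and no library repeated another.

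Ikbke and Tank, both of the TBK1 complex, stood at the top of the 10 genes. Ikbke averaged 613 ± 23.8 TPM and Tank 368 ± 27.6 TPM (SD, n = 3 each), and together they made up 72.2% of the summed TPM of the 10 genes. Irak2 and Tbk1 came next, and the MyD88 and TRIF adaptors and the other IRAK kinases lay between 4.41 and 20.97 TPM. All 10 genes had at least 1 TPM in every library, against 35.7% of the 22015 nuclear protein-coding genes, and 4 of the 10 had at least 100 TPM in every library, against 1.55% of those genes. The median was 19.9 TPM over the 10 genes, 0.24 TPM over all coding genes and 8.13 TPM over the 7862 detected coding genes. The 10 genes took between 0.226% and 0.274% of all counts. In such bulk libraries, fewer cells that express a gene and less RNA per cell cannot be told apart.

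**Figure D1:**
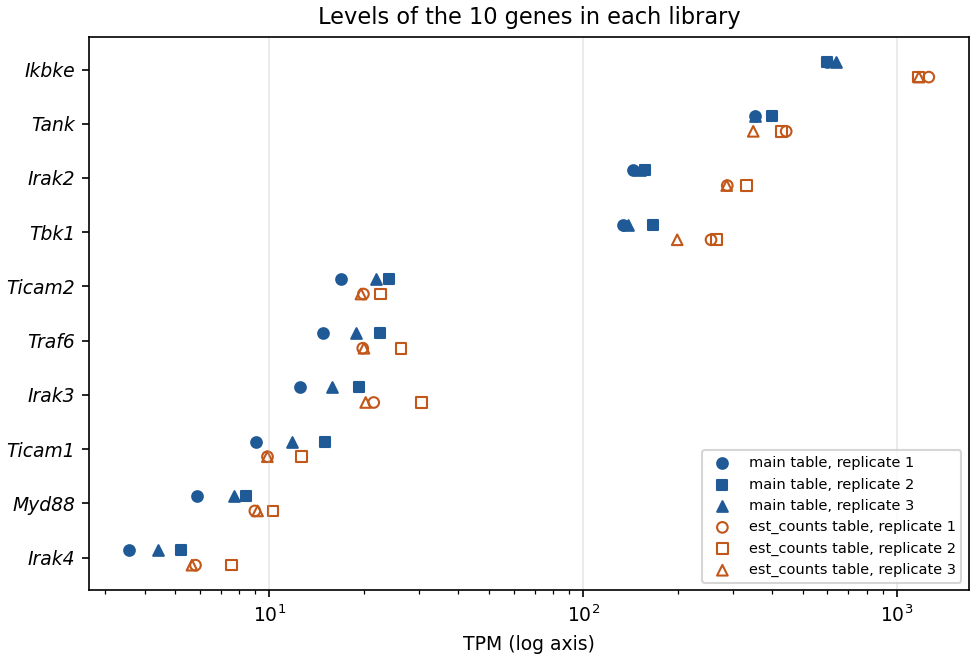
Level of each of the 10 genes in each library as TPM on a log axis, from the main table (filled points) and from the table with estimated counts (open points); each shape is 1 replicate. In the main table the 3 points of Ikbke lie to the right of those of all other genes and the 3 points of Irak4 to the left of those of all other genes.

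In the order of mean TPM, 5 of the 9 neighbouring pairs did not overlap over the 3 libraries. These were Ikbke over Tank, Tank over Irak2, Tbk1 over Ticam2, Ticam1 over Myd88 and Myd88 over Irak4. The ranges overlapped for Irak2 and Tbk1, for Ticam2 and Traf6, for Traf6 and Irak3, and for Irak3 and Ticam1, so by their ranges these neighbours were not separated. Within a library Ticam2 was above Traf6, Traf6 above Irak3 and Irak3 above Ticam1 in 3 of 3 libraries, and the order of Irak2 and Tbk1 differed between libraries. The 4 highest genes varied least on the TPM scale, with a coefficient of variation between 3.89% and 12.2%, and the other 6 had between 17.3% and 24.8%.

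The level moved with the library as a whole. Of the 10 genes, 9 were highest in replicate 2 and 9 were lowest in replicate 1, and of the detected coding genes 61.5% were highest in replicate 2 and 75.8% lowest in replicate 1. Detected coding genes lay at a median of -0.31, 0.24 and 0.07 log2 units against the mean of the other libraries in replicates 1, 2 and 3. Each library also had its own amount of starting RNA, so that amount and the library cannot be told apart. On CPM (counts scaled to library size) with TMM, a scaling that sets most genes level between libraries, the order of libraries differed: Ikbke had 1237, 950 and 1050 CPM in replicates 1, 2 and 3, and the highest of its values was 1.302 times the lowest. Ticam2, with 68.6, 68.0 and 67.7 CPM, had a highest value 1.013 times its lowest. For Ikbke, Tank, Irak2 and Tbk1 the highest value was between 1.223 and 1.302 times the lowest. For the other genes it was between 1.013 and 1.2 times the lowest, so on this scale the genes with the highest levels varied most. The biological coefficient of variation fitted with edgeR ran from 0.137 for Irak3 to 0.162 for Ikbke, against a median of 0.172 over 9843 coding genes.

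Myd88 encodes the adaptor shared by nearly all Toll-like receptors and the interleukin 1 receptor. It is on the minus strand of chromosome 9 (mm10, chr9:119335934-119341411). It had 5.88, 8.42 and 7.72 TPM in replicates 1, 2 and 3, from 218, 293 and 255 expected counts, which is a mean of 7.34 ± 1.31 TPM (SD, n = 3). Irak4 alone was lower among the 10 genes, but with coding isoforms alone the mean of Myd88 was below it, at 3.33 TPM against 3.77 TPM for Irak4. Those ranges overlapped, and in replicate 3 Myd88 was higher, at 4.44 TPM against 3.66 TPM. In the table with estimated counts the coding isoforms had 5.03 TPM for Myd88 and 4.90 TPM for Irak4. The whole of the gene lies within the span of Slc22a14 on the same strand, which had 0 counts in every library, and 31.7% of it overlaps Acaa1a on the opposite strand, which had 11.5 TPM. The strand setting of the counting was not stated in the labels or files, so reads of Acaa1a and Myd88 in the shared stretch cannot be told apart.

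The share of TPM in coding isoforms varied most in Myd88 among the 10 genes, at 45.9% ± 12.4 (SD, n = 3). The annotation has a full-length coding isoform, a short coding isoform at 0 in every library and a retained-intron isoform, which keeps the whole of introns 2 and 3 of the full-length one. The retained-intron isoform had 3.09, 5.66 and 3.28 TPM in replicates 1, 2 and 3, against 2.80, 2.76 and 4.44 TPM for the coding isoforms. The intron-holding form was higher in replicates 1 and 2 and lower in replicate 3, so the classes overlapped. The exon and intron bases around the ends of the kept introns are shown because they are present as printed only in RNA not spliced there. They run 20 bases on each side of an exon edge, with the first and last bases of the intron in capitals. The letters are those of the annotated transcript, and reads over the edges were not counted.
Myd88 intron 2, 5′ end, chr9:119338556-119338595, minus strand: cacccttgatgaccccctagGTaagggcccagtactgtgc
Myd88 intron 2, 3′ end, chr9:119338167-119338206, minus strand: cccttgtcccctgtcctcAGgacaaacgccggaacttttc
Myd88 intron 3, 5′ end, chr9:119337986-119338025, minus strand: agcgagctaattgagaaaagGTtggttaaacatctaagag
Myd88 intron 3, 3′ end, chr9:119337826-119337865, minus strand: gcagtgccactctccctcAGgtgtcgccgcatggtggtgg

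Ticam1 encodes TRIF, the adaptor of the interferon-inducing arm. Ticam1 lies on the minus strand of chromosome 17 (chr17:56269319-56276786), with 1 annotated isoform, which is coding and has 2 exons. It had 9.08, 15.02 and 11.83 TPM in replicates 1, 2 and 3, a mean of 11.98 ± 2.97 TPM (SD, n = 3), and no other annotated gene overlaps it. Its coefficient of variation of 24.8% was the highest of the 10 genes.

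Ticam2 encodes TRAM, which bridges Toll-like receptor 4 and TRIF. Its position is the minus strand of chromosome 18 (chr18:46557291-46574533). It had 16.97, 24.05 and 21.88 TPM in replicates 1, 2 and 3, a mean of 20.97 ± 3.63 TPM (SD, n = 3). Ticam1 stood below Ticam2 in each library, by -0.77 ± 0.11 on the log2(TPM + 1) scale (SD, n = 3), and an exact permutation test by sign flips, two-sided, gave p = 0.25. That p is the smallest that 3 libraries allow, and it was 0.25 after Benjamini-Hochberg adjustment over the 6 gene pairs compared. With coding isoforms alone the order turned round, to 11.98 TPM for Ticam1 and 9.41 TPM for Ticam2, a difference of 0.30 log2 units. The retained-intron isoform of Ticam2 held 54.8% ± 2.92 of the gene's TPM (SD, n = 3), and 1588 of its 2010 bases lie outside the exons of the coding isoform. Tmed7, on the same strand, overlaps 82.9% of the Ticam2 span and had 4.73 ± 1.18 TPM (SD, n = 3), so reads in the shared part could belong to either gene.

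Irak4 encodes the kinase that starts the IRAK cascade. Irak4 lies on the plus strand of chromosome 15 (chr15:94543643-94581815). It had 3.58, 5.22 and 4.43 TPM in replicates 1, 2 and 3, from 180, 256 and 204 counts, and its mean of 4.41 ± 0.82 TPM (SD, n = 3) was the lowest of the 10 genes. It still ranked above 75.8% of all nuclear coding genes. Twf1 on the opposite strand overlaps 10.1% of the span and had 15.7 TPM.

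Irak2 encodes an IRAK family member that sustains the later part of the signal. Its gene lies on the plus strand of chromosome 6 (chr6:113638467-113695026). It had 144.25, 157.94 and 152.07 TPM in replicates 1, 2 and 3, from 3288, 3315 and 3300 counts, a mean of 151 ± 6.87 TPM (SD, n = 3). Gm43912 on the same strand overlaps 0.951% of the span and had 26.5 TPM. On the opposite strand Gm43963 and Gm43964 overlap 4.399% and 1.697% and had 19.96 and 7.38 TPM. The lowest Irak2 value was above the highest value of Irak3 and of Irak4. The difference between Irak2 and Irak4 was 4.83 ± 0.16 log2 units (SD, n = 3), or 28.4-fold, in the same direction in 3 of 3 libraries, with an exact permutation p of 0.25 and an adjusted p of 0.25. It was 3.21 log2 units with coding isoforms alone, 3.87 on CPM, which does not correct for length, and 5.37 in the table with estimated counts.

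Irak3 encodes IRAK-M, known as a brake on Toll-like receptor signalling in macrophages. The gene is on the minus strand of chromosome 10 (chr10:120141648-120202130). It had 12.48, 19.33 and 15.83 TPM in replicates 1, 2 and 3, a mean of 15.9 ± 3.43 TPM (SD, n = 3). Gm47009 and Tmbim4 on the opposite strand overlap 2.81% and 0.894% of the span and had 3.33 and 30.2 TPM. Irak3 exceeded Irak4 by 1.63 ± 0.08 log2 units and was below Irak2 by -3.19 ± 0.23 log2 units (SD, n = 3 each), in 3 of 3 libraries for either pair, with exact permutation p-values of 0.25 and adjusted p-values of 0.25. With coding isoforms alone the difference between Irak3 and Irak4 was 0.26 log2 units, from 4.76 and 3.77 TPM, and on CPM it was 0.92.

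Traf6 encodes the ubiquitin ligase on which the IRAK kinases act. The gene is on the plus strand of chromosome 2 (chr2:101678429-101701669), and no other annotated gene overlaps it. It had 14.87, 22.49 and 18.88 TPM in replicates 1, 2 and 3, a mean of 18.7 ± 3.81 TPM (SD, n = 3). The 2 isoforms annotated as processed transcripts, which are spliced RNAs with no assigned reading frame, held 55.9% ± 3.15 of its TPM but 19.1% ± 1.75 of its counts (SD, n = 3 each). Among them, Traf6-202 has 1439 bases of intron 3 of the coding isoform.

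Tbk1 encodes a kinase that phosphorylates interferon regulatory factor 3. The gene is on the minus strand of chromosome 10 (chr10:121546455-121586787), with no overlapping annotated gene. It had 134.00, 167.28 and 139.34 TPM in replicates 1, 2 and 3, a mean of 147 ± 17.9 TPM (SD, n = 3). The full-length coding isoform was the steadiest of its isoforms, with 60.98, 66.12 and 67.75 TPM, while the retained-intron isoforms together had 57.09, 86.24 and 66.14 TPM. Most of the difference of replicate 2 in the gene's TPM was therefore in the retained-intron isoforms.

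Ikbke encodes IKK-epsilon, the kinase most similar to TBK1. The Ikbke gene occupies the minus strand of chromosome 1 (chr1:131254343-131279606). It had 599.25, 598.75 and 640.24 TPM in replicates 1, 2 and 3, from 16146, 15581 and 15758 counts, and ranked 19 among all nuclear coding genes. Ikbke exceeded Tbk1 by 2.06 ± 0.20 log2 units (SD, n = 3), or 4.17-fold, in 3 of 3 libraries, with an exact permutation p of 0.25 and an adjusted p of 0.25. With coding isoforms alone Ikbke had 171 ± 22.1 TPM and Tbk1 70.1 ± 2.59 TPM (SD, n = 3 each), a difference of 1.27 log2 units. The antisense genes Gm28914 and Gm28913 overlap 4.14% and 13.5% of the Ikbke span and had 29.0 and 66.2 TPM, so some reads counted for either could come from the other strand.

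Tank encodes a scaffold that binds TBK1 and IKK-epsilon. The gene is on the plus strand of chromosome 2 (chr2:61578585-61654171), with no overlapping annotated gene. It had 351.57, 400.13 and 353.20 TPM in replicates 1, 2 and 3. Tank exceeded Tbk1 by 1.32 ± 0.07 log2 units (SD, n = 3), in 3 of 3 libraries, with an exact permutation p of 0.25 and an adjusted p of 0.25. Over coding isoforms alone Tank had 179 ± 6.52 TPM, against 171 ± 22.1 TPM for Ikbke (SD, n = 3 each), and those ranges overlapped. In the table with estimated counts the coding isoforms of Ikbke were higher, at 337 ± 15.1 TPM against 194 ± 16.7 TPM for Tank (SD, n = 3 each). The short coding isoform Ikbke-202, of 549 bases, had 43.7 TPM in the main table and 183 TPM in the table with estimated counts.

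The isoform make-up of the 10 genes differed widely. The annotation gives them 51 transcripts, of which 22 are coding, 14 retained-intron, 12 processed and 3 marked for nonsense-mediated decay. Retained-intron isoforms were annotated for 7 of the 10 genes, and not for Ticam1, Traf6 or Tank. Ikbke gave 72.1% ± 3.18 of its TPM to retained-intron isoforms, Ticam2 54.8% ± 2.92 and Myd88 54.1% ± 12.4 (SD, n = 3 each). The shares were 48.5% ± 5.10 in Irak3, 47.2% ± 4.48 in Tbk1, 46.1% ± 1.25 in Irak2 and 14.9% ± 3.50 in Irak4. Among the 9 genes that have other isoforms besides coding ones, Irak4 had the highest coding share, at 85.1% ± 3.50 of its TPM (SD, n = 3), and Ticam1 has a coding isoform alone.

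**Figure D2:**
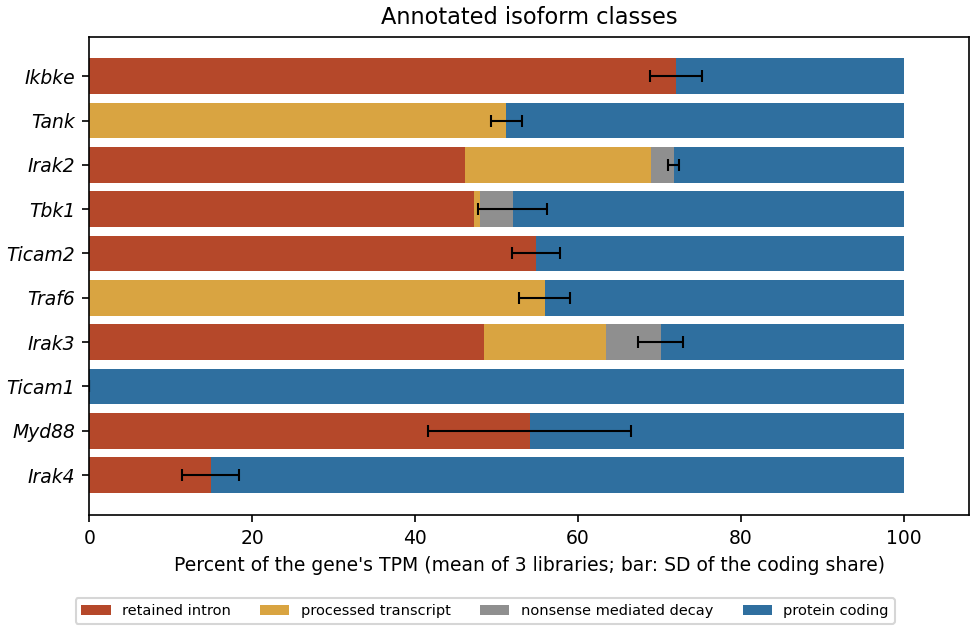
Mean share of each gene's TPM in each annotated transcript class, in percent over 3 libraries; the black line is the SD of the coding share. The retained-intron share is widest in Ikbke, at 72.1%, and Ticam1 has only coding TPM.

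To ask whether one isoform class exceeded the other, the log2 ratio of the TPM of retained-intron isoforms to that of coding isoforms was tested against 0 with limma over every gene that has both classes. Of the 10 genes, 7 could be tested. Retained-intron isoforms were higher in 3 (Ikbke, Irak2 and Irak3), against 35.5% of the 5601 genes tested, and coding isoforms were higher in 1 (Irak4), against 31.9% of the genes tested. With so few genes, these counts are not a result that sets the group apart from all genes. The median ratio was 0.27 over the 7 genes and 0.08 over all genes tested.

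In Ikbke the retained-intron isoforms had 416.88, 452.94 and 454.51 TPM in replicates 1, 2 and 3, against 182.37, 145.81 and 185.72 TPM for coding isoforms. The retained-intron class was above the coding class in every library, with a log2 ratio of 1.37 (SE 0.15, limma adjusted p = 7.6e-05, n = 3 libraries). In Irak2 the retained-intron isoforms had 66.50, 74.85 and 68.28 TPM, against 40.04, 44.14 and 44.08 TPM for coding isoforms. The ratio was 0.70 (SE 0.13, limma adjusted p = 0.00145), and again the classes did not overlap. In the table with estimated counts it was 1.79.

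In Irak3 the retained-intron isoform had 5.31, 10 and 8.08 TPM in replicates 1, 2 and 3, against 3.74, 6.28 and 4.27 TPM for coding isoforms. It was higher within each library although the ranges overlapped, with a ratio of 0.64 (SE 0.18, limma adjusted p = 0.0112). Without replicate 3 the ratio was 0.54 and the limma adjusted p was 0.0818, and when each class was averaged over its transcripts in place of summed the ratio was 1.51. Irak4 went the other way, with 0.59, 0.57 and 0.77 TPM in the retained-intron isoform, against 2.99, 4.65 and 3.66 TPM in coding isoforms. Its ratio was -1.89 (SE 0.23, limma adjusted p = 0.000122), and -1.05 with the mean TPM per transcript. The retained-intron isoform of Irak4 had only 10.31, 8.83 and 12.13 expected counts in replicates 1, 2 and 3. The size of the ratio depended on the pseudocount, at -2.37 with 0.1 and -1.52 with 1.

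The remaining 3 genes passed in neither direction. Ticam2 had a ratio of 0.27 (limma adjusted p = 0.162), Myd88 of 0.22 (adjusted p = 0.49) and Tbk1 of -0.03 (adjusted p = 0.886). In the table with estimated counts Ticam2 did pass, at 0.64 (limma adjusted p = 0.00247). With the mean TPM per annotated transcript in place of the sum, Myd88 passed at 1.03 (limma adjusted p = 0.00632) and Tbk1 at -0.60 (limma adjusted p = 0.00732). The sign of the Myd88 ratio was positive in replicates 1 and 2 and negative in replicate 3, at 0.12, 0.92 and -0.39.

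When all isoforms that are not coding were set against coding isoforms, 9 of the 10 genes could be tested, all but Ticam1. The other isoforms were higher in 3, against 35.9% of 7349 genes tested, and coding isoforms in 1, against 31.1%. The ratios were 1.37 for Ikbke, 1.34 for Irak2 and 1.15 for Irak3, and -1.89 for Irak4, with limma adjusted p-values of 6.7e-05, 3.8e-05, 0.000535 and 0.000215. With the mean TPM per transcript Irak2 had 0.34 (limma adjusted p = 0.039) and Irak3 0.55, and in the table with estimated counts they had 2.66 and 1.78. Traf6 had 0.33 and Tank 0.07, with limma adjusted p-values of 0.118 and 0.651. In the table with estimated counts Traf6 passed, at 0.72 (limma adjusted p = 0.00296), and with the mean TPM per transcript its sign turned, to -0.61 (limma adjusted p = 0.00783). Tbk1 had 0.11, with a limma adjusted p of 0.509, and -1.18 with the mean TPM per transcript (limma adjusted p = 0.000357).

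**Figure D3:**
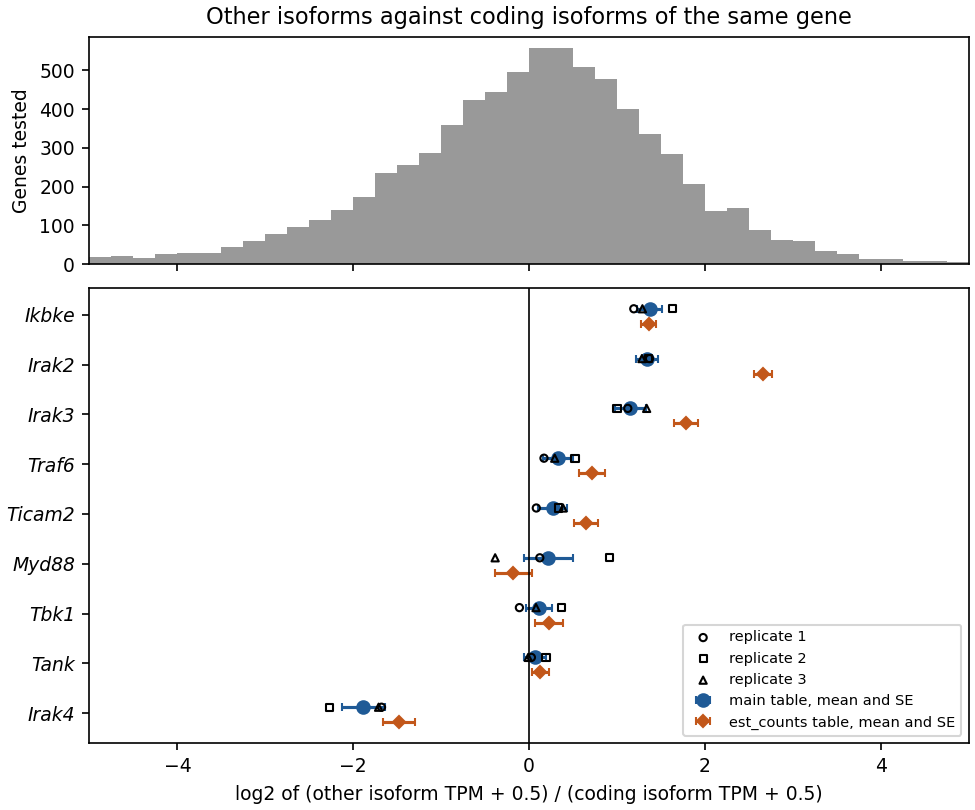
Top, log2 ratio of other to coding isoform TPM (pseudocount 0.5) over all 7349 genes tested, with 74 genes beyond 5 in either direction not drawn; bottom, the 9 genes with the mean and SE over 3 libraries from the main table (blue) and from the table with estimated counts (orange), and each library's value from the main table (open shapes). Ikbke, Irak2 and Irak3 lie above 0 and Irak4 below 0 in every library.

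The share in counts was not the share in TPM, because short isoforms take more TPM for each read. In Irak2 the coding isoforms had 28.2% ± 0.66 of the TPM but 65.8% ± 0.45 of the counts (SD, n = 3 each), and in Tbk1 48.0% ± 4.22 of the TPM but 80.6% ± 2.43 of the counts. In Ikbke the coding isoforms had 27.9% ± 3.18 of the TPM and 43.3% ± 4.76 of the counts. Ikbke was thus a gene in which retained-intron isoforms held most of either measure.

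A retained-intron label does not mean that most of the isoform is intron. Of the 741 bases of Ikbke-207, 39.7% lie outside the exons of all coding isoforms of the gene, and of the 797 bases of Ikbke-205, 40.5%. In Irak3-204 that share was 9.99% and in Irak2-207 it was 6.63%. The TPM of such an isoform therefore rests largely on bases that it shares with coding isoforms, and their separation depends on the program's assignment of shared reads.

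Of the 4 retained-intron isoforms of Ikbke, Ikbke-206 holds the most intron. It has 5856 bases, of which 78.9% lie outside coding exons, and it includes the whole of introns 17, 18 and 19 of the main coding isoform Ikbke-201, which are 722, 1184 and 677 bases long. Ikbke-206 had 43.68, 62.56 and 48.30 TPM in replicates 1, 2 and 3, against 109.65, 98.05 and 118.45 TPM for Ikbke-201, so it was lower in every library. In counts they were closer, at 5050 for Ikbke-206 and 5749 for Ikbke-201 on average. There the order differed between libraries: Ikbke-206 was lower in replicates 1 and 3 and higher in replicate 2, at 5972 against 5008 counts. The 2 short isoforms Ikbke-205 and Ikbke-207 had the highest TPM, at 146 ± 19.5 and 142 ± 20.8 TPM (SD, n = 3 each), and Ikbke-203 had 102 ± 5.46 TPM.

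**Figure D4:**
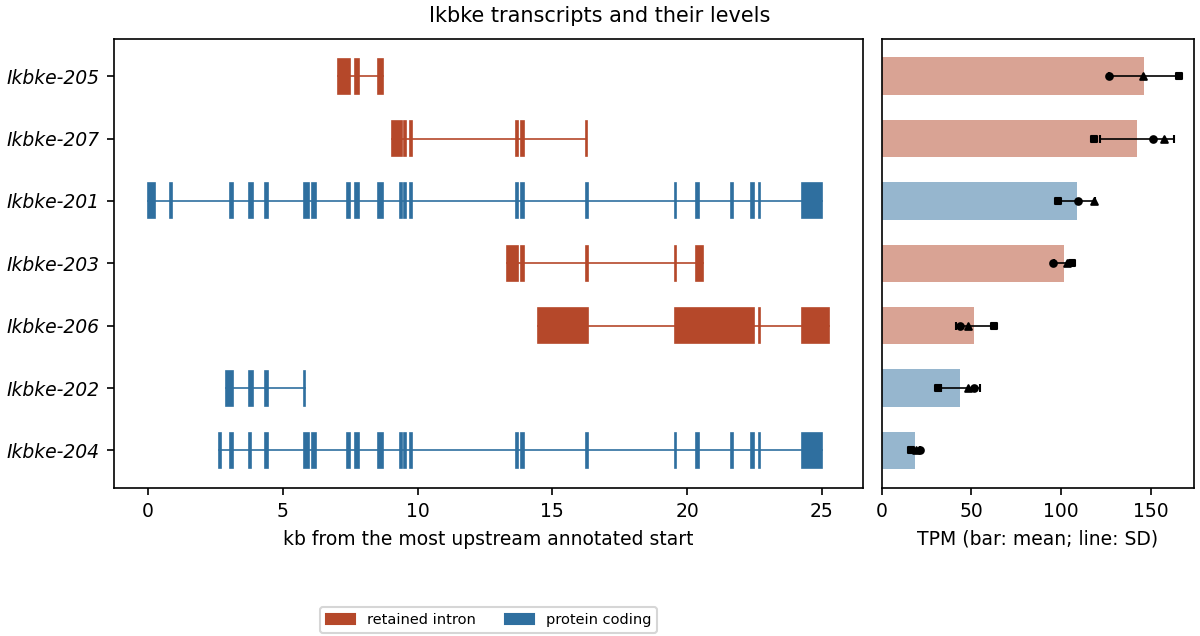
Left, exons of the 7 Ikbke transcripts (boxes) by distance in kb from the most upstream annotated start, in the direction of transcription; right, TPM of each transcript as the mean (bar), SD (line) and each library (points). The 2 transcripts with the highest mean TPM, Ikbke-205 and Ikbke-207, are short retained-intron forms that start inside the gene.

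The edges of the 3 introns that Ikbke-206 keeps are printed because the letters on both sides of each edge occur together only in RNA not spliced there. Such an edge does not mark a whole kept intron: the 5′ edge of intron 18 is also in Ikbke-203, which holds 162 of its 1184 bases. The letters are those of the annotated transcript, and reads over the edges were not counted. Each line has 20 bases on either side of the exon edge, and the first and last bases of the intron are in capitals.
Ikbke intron 17, 5′ end, chr1:131259986-131260025, minus strand: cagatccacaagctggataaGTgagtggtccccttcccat
Ikbke intron 17, 3′ end, chr1:131259264-131259303, minus strand: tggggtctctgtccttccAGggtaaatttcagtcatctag
Ikbke intron 18, 5′ end, chr1:131259162-131259201, minus strand: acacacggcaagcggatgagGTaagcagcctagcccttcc
Ikbke intron 18, 3′ end, chr1:131257978-131258017, minus strand: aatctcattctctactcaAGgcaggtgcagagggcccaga
Ikbke intron 19, 5′ end, chr1:131257881-131257920, minus strand: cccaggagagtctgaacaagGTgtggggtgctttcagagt
Ikbke intron 19, 3′ end, chr1:131257204-131257243, minus strand: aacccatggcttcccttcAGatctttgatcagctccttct

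Tank had no isoform labelled retained-intron in the annotation, but some of its processed transcripts hold intron bases. Tank-206 has the whole of intron 5 of Tank-201, 521 bases, and Tank-207 has 1342 bases of intron 2. The 11 Tank transcripts differed in their exons and in where they start. A group of 4 begins within 26 bases of the most upstream start, 5 begin between 14492 and 14580 bases further on, and 2 begin well inside the gene. The downstream starts had 134.34, 176.80 and 142.56 TPM in replicates 1, 2 and 3, against 120.77, 114.56 and 113.26 TPM for the upstream starts. The downstream starts were higher in every library of the main table, and the ranges did not overlap. Their sum includes Tank-207 at 53.5 ± 8.93 TPM (SD, n = 3), of which 87.4% of the bases lie outside coding exons. Whether its reads came from that start was not tested. In the table with estimated counts the downstream starts had 187 ± 25.3 TPM and the upstream starts 160 ± 23.2 TPM (SD, n = 3 each). Those ranges overlapped. Over coding isoforms alone the downstream starts had 75.50, 106.40 and 90.48 TPM, against 98.69, 80.29 and 86.76 TPM for the upstream starts. There the order differed between libraries, and the downstream share was 50.5% ± 6.84 (SD, n = 3).

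The internal starts held 27.4% ± 0.20 of the gene's TPM (SD, n = 3), almost all in Tank-211 at 100 ± 6.67 TPM, a processed transcript of 832 bases with 476 bases of intron 5 of Tank-201. The table with estimated counts gave Tank-211 58.7 ± 12.5 TPM (SD, n = 3). Tank-202, which starts downstream, was the highest coding isoform at 81.9 ± 16.1 TPM (SD, n = 3).

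**Figure D5:**
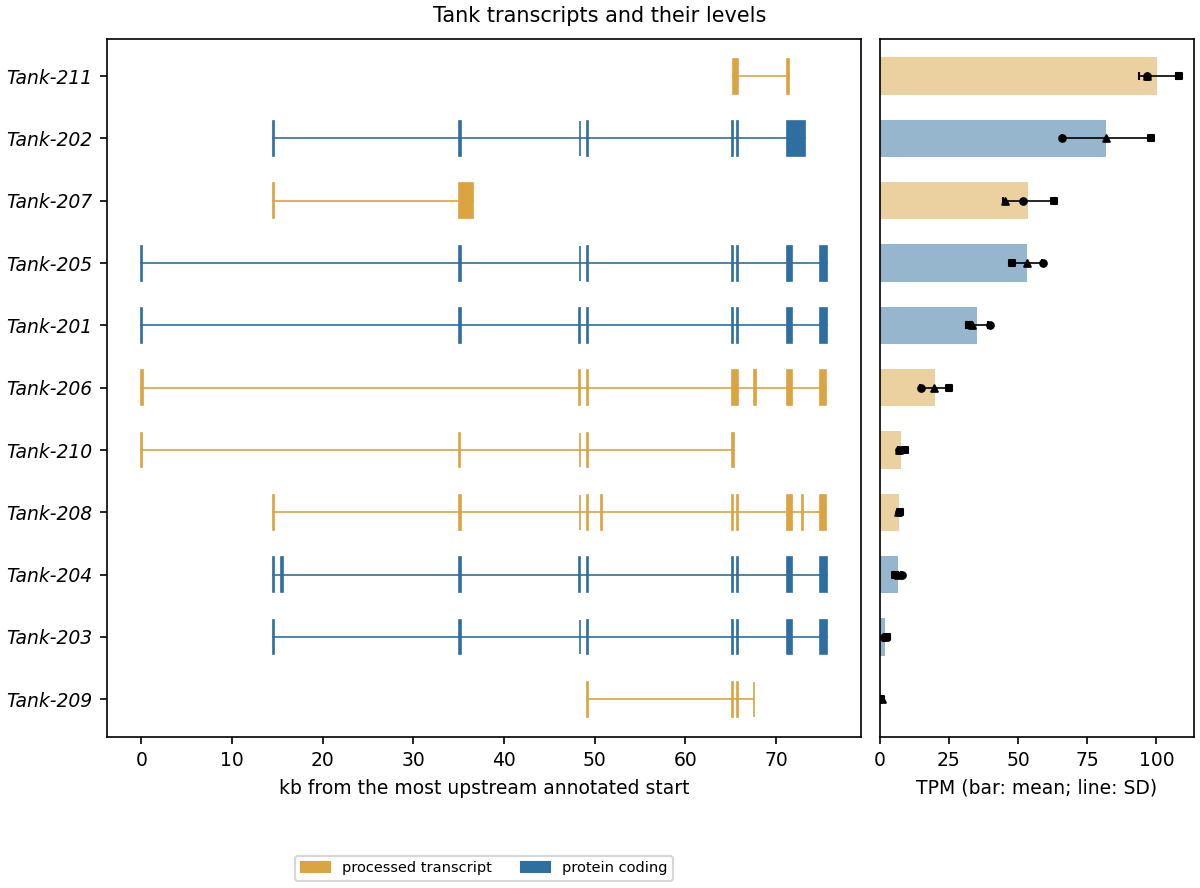
Left, exons of the 11 Tank transcripts (boxes) by distance in kb from the most upstream annotated start; right, TPM of each transcript as the mean (bar), SD (line) and each library (points). Transcripts start at 0, 14492 to 14580 bases further on or inside the gene, and Tank-211, of the last kind, has the highest mean at 100 TPM.

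TPM was assigned to both Tank start regions, and the windows around them are printed to compare their letters, from 250 bases before to 50 bases after the RefSeq start (GRCm38.p6). Of the 10 genes, 9 had such windows, 13 in all, and Ticam2 had none. The NF-kB consensus, TGANTCA and the core of the interferon-stimulated response element (GAAA, any 2 bases, GAAA) were searched on both strands. TATAAA was searched on the strand of the gene. TGANTCA matches the same bases on either strand. It takes any middle base and so is looser than the AP-1 site, which is TGACTCA or TGAGTCA. Capitals mark the matches: in the downstream window GGGGCTTTCC, an NF-kB consensus match whose first base is 72 bases before the start, and TGACTCA.
Tank downstream start, chr2:61592847-61593146, plus strand: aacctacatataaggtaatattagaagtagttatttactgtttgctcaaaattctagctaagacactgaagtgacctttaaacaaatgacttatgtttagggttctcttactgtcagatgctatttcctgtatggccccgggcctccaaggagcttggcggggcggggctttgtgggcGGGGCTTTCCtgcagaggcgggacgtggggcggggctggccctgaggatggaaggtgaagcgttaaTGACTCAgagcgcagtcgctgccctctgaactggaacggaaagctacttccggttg
Tank upstream start, chr2:61578307-61578606, plus strand: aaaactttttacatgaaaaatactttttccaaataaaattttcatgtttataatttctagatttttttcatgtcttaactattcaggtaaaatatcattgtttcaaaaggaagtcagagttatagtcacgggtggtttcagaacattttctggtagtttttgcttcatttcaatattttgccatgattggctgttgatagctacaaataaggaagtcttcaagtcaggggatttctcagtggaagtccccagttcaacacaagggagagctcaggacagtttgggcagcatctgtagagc

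The upstream Tank window held none of the 4 motifs. It had a GC content of 34.7% and 1 CG dinucleotide, against 51.0% and 12 for the downstream window, and the medians over all 32851 RefSeq windows were 52.7% and 7. The NF-kB consensus was found in 4.51% of all windows and TGANTCA in 7.81%. Each Tank start has a second window that overlaps the one printed, so the downstream motifs were counted in 2 windows of the same stretch. A match is a run of letters and says nothing of binding in these cells.

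Ikbke, the highest of the 10 genes, had TGAATCA, a match to TGANTCA, shown in capitals. Its first base is 6 bases before the RefSeq start, and its middle base is A, so it is not the AP-1 site itself. The GENCODE start of Ikbke-201, at chr1:131279606, lies further upstream, so the match is inside the first exon of that isoform.
Ikbke start, chr1:131279514-131279813, minus strand: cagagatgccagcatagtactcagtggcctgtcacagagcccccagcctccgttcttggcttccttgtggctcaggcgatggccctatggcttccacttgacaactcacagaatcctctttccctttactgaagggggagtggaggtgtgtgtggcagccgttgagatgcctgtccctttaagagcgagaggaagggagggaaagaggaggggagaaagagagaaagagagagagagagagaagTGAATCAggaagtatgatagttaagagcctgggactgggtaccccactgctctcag

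Myd88 was the gene with a match to the response element core, which is in 3.44% of all windows, at 40 bases before the RefSeq start. It also had a match to TATAAA, which is in 8.32% of all windows, at 160 bases before the RefSeq start. Capitals mark both.
Myd88 start, chr9:119339969-119340268, minus strand: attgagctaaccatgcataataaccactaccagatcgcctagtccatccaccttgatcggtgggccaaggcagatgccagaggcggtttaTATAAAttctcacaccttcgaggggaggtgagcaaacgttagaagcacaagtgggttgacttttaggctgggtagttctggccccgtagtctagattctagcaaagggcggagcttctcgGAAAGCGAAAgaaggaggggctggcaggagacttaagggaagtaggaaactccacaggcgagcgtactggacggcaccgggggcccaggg
The windows of Ticam1, Irak2, Irak3, Irak4, Traf6 and Tbk1 had none of the 4 motifs in these letters.

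The other table of transcript levels, with estimated counts, placed the same 4 genes on top in the same order but gave other levels. Ikbke had 1203 ± 51.5 TPM, Tank 407 ± 51.2 TPM, Irak2 302 ± 25.4 TPM and Tbk1 240 ± 35.9 TPM (SD, n = 3 each). Nuclear coding genes took between 35.5% and 39.7% of the TPM in that table, and over 7862 detected coding genes the median ratio between the tables was 1.58. Against that median, Ikbke at 1.96, Irak2 at 1.99 and Tbk1 at 1.64 were above, all within the quartiles of 1.25 and 2.13. The other genes of the set were below, among them Ticam1 at 0.90, Ticam2 at 0.99 and Tank at 1.10. The order of the middle genes changed, with Irak3 at 24.1, Traf6 at 22.0 and Ticam2 at 20.7 TPM, and Irak4 remained lowest at 6.35 TPM.

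Among 44 other genes of the Toll-like receptor 4 pathway, 37 were detected and the median level was 18.6 TPM. The highest were the ubiquitin ligase Birc3 at 162 TPM, the co-receptor Cd14 at 158 TPM, the adaptor Pik3ap1 at 120 TPM, the kinase Ikbkb at 112 TPM and the ubiquitin ligase Peli1 at 101 TPM. All 5 were below Ikbke and Tank. The lowest were Sigirr at 0.05, Lbp at 0.023 and Sarm1 at 0.0033 TPM. The receptor Tlr4 itself had 5.52 ± 1.95 TPM, Irak1 18.6 ± 5.10 TPM, Traf3 9.08 ± 2.87 TPM and Tirap, the adaptor that brings MyD88 to the receptor, 1.60 ± 0.52 TPM (SD, n = 3 each). Irf3, the factor that TBK1 phosphorylates, had 57.4 ± 16.4 TPM (SD, n = 3).

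Of that list, 29 genes could be tested for retained-intron against coding isoforms. Retained-intron isoforms were higher in 8, against 35.5% of all genes tested, and coding isoforms in 6, against 31.9%, and 15 passed in neither direction. Ikbkb had the ratio furthest above 0 of those tested, at 2.27 (SE 0.15, limma adjusted p = 4.8e-06), and Traf3 the furthest below, at -2.59 (SE 0.27, limma adjusted p = 5.7e-05). For all other isoforms against coding isoforms, 37 could be tested, with 11 higher in the other isoforms, against 35.9% of all genes tested, 10 higher in coding isoforms, against 31.1%, and 16 in neither.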

How the data were processed

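Chromatin-fraction total RNA from 3 libraries of 1 group was analysed. For each library the authors deposited genes and transcripts with expected counts and TPM, in column names that RSEM writes, and another transcript table with estimated counts and TPM, in column names that kallisto writes; per the deposited text files the build was mm10 and the annotation GENCODE M21. No source used here gives the programs or the strand setting. The authors' interval bounds and effective lengths, deposited beside the TPM values, were not used for tests. Rows that name no gene (26345, among them spike-ins) held 1.40%, 0.352% and 0.354% of the expected counts in replicates 1, 2 and 3 and were left out of library sizes and tests.

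Levels are TPM, and log2 values have a pseudocount of 1. Gene pairs were compared by an exact permutation test over sign flips (two-sided, smallest p 0.25) with Benjamini-Hochberg adjustment over 6 pairs. Isoform ratios were tested with limma 3.58.1 (intercept only, variance trend, pseudocount 0.5, summed TPM of at least 1) over all genes, and p-values were adjusted over all of them. Expected counts were rounded for the spread, with edgeR 4.0.16 in R 4.3.3. Both fits were tested on simulated data. All 10 genes are named, with the 5 highest and 3 lowest of the pathway list and Tlr4, Irak1, Traf3, Irf3 and Tirap. The members and lists were chosen with earlier results of these data known. Gene positions are those of GENCODE M21, and promoter windows those of RefSeq.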

Additional observations from a re-analysis of the deposited data

How the results depend on the processing

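Gene levels, gene pairs, isoform ratios and their counts, and the common spread were recomputed under other settings. Class shares and motif counts were not, and Tank starts only in the table with estimated counts. Of 48 recomputed gene-pair differences, 47 kept their direction. Ticam1 against Ticam2 turned to 0.30 with coding transcripts only, an alternative chosen after seeing the data, and without 1 library the differences ran from -0.83 to -0.74. The count of genes with higher retained-intron isoforms was 1989, and 3200 with the estimated-count table. The count with higher coding isoforms was 1784, and 1117 at a summed TPM of at least 5. For all other isoforms these counts were 2637 and 2282, with 4964 in the estimated-count table and 1372 at a summed TPM of at least 5. With the mean TPM per transcript in place of the sum, retained-intron isoforms were higher in 2404 genes and coding isoforms in 1258, which is 65.6% against 52.7% of calls, and the estimated-count table gave 65.6% against 53.6% for all other isoforms. For all other isoforms the mean TPM per transcript turned the balance, with 2150 higher and 2476 higher in coding isoforms (46.5%). Without a filter above 0 the split was 2697 and 2728 for all other isoforms, and 2006 and 2026 for retained-intron isoforms. The retained-intron calls of Ikbke and Irak2 held under every alternative run, and that of Irak4 under all but the filter at a summed TPM of at least 5, which leaves Irak4 out.

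Of 158 recomputed member ratios 9 changed sign, all in genes without a call in the reported fit. Myd88 had -0.18 in the estimated-count table, and without 1 library its ratio ran from -0.13 to 0.52, in both tests. Without 1 library the Tbk1 ratio ran from -0.16 to 0.10 for retained-intron isoforms and from -0.016 to 0.23 for all other isoforms. With the mean TPM per transcript, the ratio of other isoforms was -0.61 for Traf6, -1.18 for Tbk1 and -0.19 for Tank. The cause was not tested. The 5 recomputed estimates of the common biological coefficient of variation ran from 0.125 to 0.206, against 0.181. No paired analysis was possible because the series has 1 group, so replicate numbers pair no samples across groups; differences between genes or isoforms were taken within each library. Depth limits Irak4 and Myd88 most, which had between 180 and 293 counts per library. Rescaling TPM to coding genes raised all 10 levels, for Ikbke to 11.47 from a log2(TPM + 1) of 9.26, and changed no pair direction.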
